A study of Danio rerio with 19 samples.

Results

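The ovaries of 9 zebrafish are described here, of 19 gonads in the series, chosen by their source label. The fish were of the AB strain, 90 days old, laboratory raised and kept under control conditions without any treatment, and each library came from 1 fish. CpG methylation was read by bisulfite amplicon sequencing, in which unmethylated cytosine is converted and read as T while methylated cytosine stays C. A position was kept with 10 or more reads in at least 5 ovaries, which left 150 of the 395 positions listed in any ovary, and these held 99.97% of all ovary calls. Runs of positions less than 1000 bp apart formed 9 amplicons.

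Vertebrate genomes carry most of their DNA methylation on the cytosine of CpG pairs, and CpG-rich promoters of active genes are typically kept free of it. A zebrafish ovary holds oocytes of many stages together with the somatic granulosa and theca cells of the follicles, so a level from whole tissue is an average over cell types and over both alleles. A level between the extremes can come from cells that differ, from alleles that differ, or from both, and these cannot be told apart in read counts per position. The series title names il1b, which encodes the pro-inflammatory cytokine interleukin-1 beta, and casp9, the gene of caspase-9, a protease that starts the apoptotic cascade. RefSeq places il1b on chromosome 10, casp9 on chromosome 23 and cyp19a1a, the gonadal aromatase that makes oestrogen from androgen, on chromosome 18. A single amplicon lies on each of these chromosomes, and whether it falls in the gene was not checked here. Coordinates are those of GRCz11, counted from 1. No gene annotation of that build was used here, so exons, introns and promoters are not assigned.

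Total calls per ovary had a median of 1172304 and ran from 488594 in ovary 2 to 2235082 in ovary 18. The median coverage of an amplicon over the 9 ovaries was at least 2085 reads in 8 amplicons and 11 reads in the chromosome 7 amplicon. There only 6 ovaries had enough reads, and the other amplicons had a level in all 9. At 11 of the 150 positions the median read depth did not reach 10% of the median for the amplicon, and these are called thin positions. Their mean level was at most 1.04%, with 9 methylated calls among 4690 reads, and 6 of them had no methylated call in any ovary. A count of 0 at these 6 allows a level of up to 2.42% at the thinnest and 0.509% at the deepest. Of the 11 thin positions, 54607239 and 54607281 lie 1 bp beyond a well covered position. This is the spacing of the 2 cytosines of a single CpG on opposite strands. Whether thin positions are CpGs of their own was not checked, so counts over 150 positions may count a CpG more than once. Because some ovaries lacked these positions, levels by fish are given for the other 139 CpGs unless all 150 are named. PCR reads without molecular identifiers are not independent molecules, so intervals and limits here cover counting error only.

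Before the results, 1 amplicon needs a caution. In the first chromosome 5 amplicon, 2 pairs of ovaries had counts that agreed within sampling noise over 24 CpGs: ovaries 13 and 17 (chi-square per CpG 0.427) and ovaries 2 and 5 (0.567, at 165 and 93 reads). Ovaries 1, 11 and 18 each differed from 1 testis there by no more than sampling noise (1.06, 0.978 and 1.31). Whether all reads of this amplicon came from the labelled fish was not tested. Without ovaries 1, 11 and 18 its mean was 34.6% ± 16.1 (SD, n = 6), in place of 28.7% ± 18.8 (SD, n = 9). No pair of ovaries with a median coverage of 50 reads or more agreed in any other amplicon. On chromosome 7 only ovaries 15 and 18 had that coverage, so its other pairs were not judged. The lowest chi-square per CpG there was 0.315. The ovaries of the first chromosome 5 amplicon are therefore also counted with each agreeing pair as 1 sample, and its results are given on their own.

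The ovary amplicons fell into 3 tiers of methylation. The chromosome 7, 19 and 10 amplicons were mostly methylated, with means of 74.6% ± 18.4 (SD, n = 6), 65.8% ± 3.47 (SD, n = 9) and 58.4% ± 6.54 (SD, n = 9) over all 150 positions. The chromosome 18 amplicon, the first on chromosome 5 and the chromosome 24 amplicon had 33.2% ± 9.19, 28.7% ± 18.8 and 28.4% ± 5.01 (SD, n = 9 each). Without its thin positions the chromosome 18 amplicon had 37.5% ± 10.6 (SD, n = 9). The chromosome 3 and 23 amplicons and the second on chromosome 5 were close to 0, with 0.605% ± 0.157, 0.558% ± 0.0496 and 0.542% ± 0.120 (SD, n = 9 each).

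Every pair of amplicons was compared within fish by a two-sided exact sign-flip permutation test, adjusted over 36 pairs by Benjamini-Hochberg. With 9 ovaries the smallest p this test can give is 0.00391, and with the 6 of chromosome 7 it is 0.0313. Of the 36 pairs, 28 differed (77.8%). The 8 that did not pass all lay inside a tier, but the tiers were drawn from these same means, so this is no separate support for them. Without the thin positions 28 pairs differed again, 27 of them shared, and 2 pairs changed their call. Within the upper tier the chromosome 19 amplicon exceeded that of chromosome 10 by 7.38 points ± 7.32 over all positions (SD, n = 9; exact permutation p = 0.0195, adjusted p = 0.0320), and by 4.02 points ± 5.13 without the thin ones, which did not pass (SD, n = 9; exact permutation p = 0.0508, adjusted p = 0.0630). The sign was positive in 8 of 9 ovaries either way. The call was also lost on the log-odds scale (adjusted p = 0.770 by exact permutation) and without any one of ovaries 1, 5, 11, 13, 15 or 18 (2.96 to 7.74 points, adjusted p 0.0639 to 0.131 by exact permutation). The chromosome 7 amplicon was not separated from either of them (exact permutation p = 0.156 against chromosome 10 and 0.375 against chromosome 19, n = 6). In the middle tier the chromosome 18 amplicon was 4.77 points ± 9.23 (SD, n = 9) above that of chromosome 24 over all positions, with 5 of 9 ovaries positive, which did not pass (exact permutation p = 0.180, adjusted p = 0.216). Without the thin positions it was 9.06 points ± 10.9 (SD, n = 9) above, with 8 of 9 ovaries positive, which did (exact permutation p = 0.0117, adjusted p = 0.0192). The thin positions of chromosomes 10 and 18 had no methylated read, and they entered the mean only of the ovaries that covered them.

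**Figure D1:**
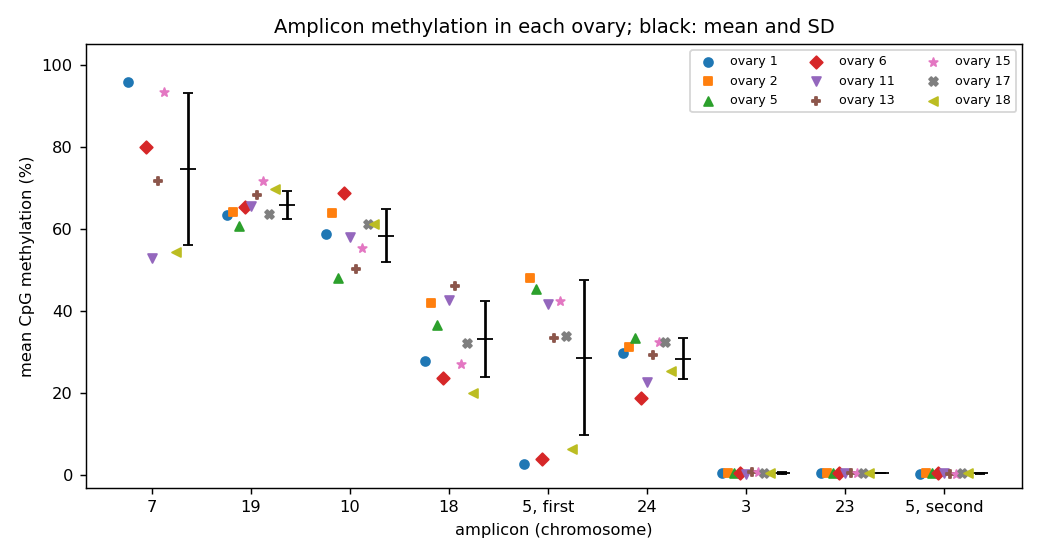
Mean CpG methylation (%, y axis) of each amplicon (x axis, by chromosome, highest mean at left) over all kept positions, with 1 symbol per ovary and the mean and SD in black. The first chromosome 5 amplicon splits into 3 ovaries at 2.87% to 6.44% and 6 at 33.4% to 48.1%, while the 3 amplicons at right lie close to 0 in every ovary.

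The shape of the profile along an amplicon was asked next. Each CpG was set against the mean of the other CpGs of its amplicon in the same fish, by the same exact sign-flip permutation adjusted over all 150 positions. Of these, 61 stood apart (40.7%), 26 higher (17.3%) and 35 lower (23.3%) than the rest of their amplicon. Without the 11 thin positions it was 55 of 139 (39.6%), 22 higher (15.8%) and 33 lower (23.7%). Deviations within an amplicon are tied to each other, so these tests are not independent. Neighbouring CpGs were compared in the same way, as the downstream minus the upstream level, and 40 of 141 neighbouring pairs differed (28.4%), 22 upward (15.6%) and 18 downward (12.8%), and 24 of them by 10 points or more (17%). Without the thin positions 39 of 130 pairs differed (30%), 21 upward (16.2%) and 18 downward (13.8%), and 24 of them by 10 points or more (18.5%). With agreeing ovaries counted as 1, 25 pairs differed, 16 of them by 10 points or more. At least 12 tests at the smallest p are needed for any call over all positions.

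The chromosome 10 amplicon, from 44956550 to 44956948, had 1 CpG near full methylation among CpGs of intermediate level. Without its thinly covered position the mean was 61.7% ± 5.23 (SD, n = 9), from 53.3% in ovary 5 to 68.9% in ovary 6 with a median of 61.4%. The CpG at 44956825 had 89.4% in the lowest ovary, 91.4% in the median one and 94.4% in the highest. It lay 36.9 points above the rest of the amplicon over all positions and 33.4 points above it without the thin one. This was the tightest CpG of the amplicon, with an SD of 1.53 points. The lowest CpG was 44956589, at 27.9% to 54.2% with a median of 37.2%. It lay below the rest, with a mean difference of -19.7 points over all positions and -23.6 points without the thin one. Both passed either way (exact permutation, n = 9, p = 0.00391, adjusted p = 0.0122 over all positions and 0.0129 without the thin one). Every ovary was higher at the first of these CpGs than at the second, and their ranges did not overlap.

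The largest steps along chromosome 10 were of the same order as that gap. CpG 44956872 had 60.3% against 91.4% at its upstream neighbour 44956825, a step of -31.1 points ± 17.97 (SD, n = 9) over 47 bp. CpG 44956616 had 65.8% against 40.8% at 44956589 upstream, a step of 25.0 points ± 5.81 (SD, n = 9) over 27 bp. CpG 44956825 had 91.4% against 67.9% at 44956647 upstream, a step of 23.5 points ± 6.86 (SD, n = 9) over 178 bp. All 3 steps had the same sign in 9 of 9 ovaries (exact permutation p = 0.00391, adjusted p = 0.0172). In all, 6 of the 8 neighbouring pairs without the thin position differed.

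The CpG at 44956872 also had the widest spread of the chromosome 10 amplicon. Ovaries 1, 5, 6, 11 and 18 had 38.8%, 46.0%, 46.3%, 46.3% and 49.7% there, and ovaries 2, 13, 15 and 17 had 78.7%, 74.9%, 84.6% and 76.9%. These are 2 sets of values with an empty gap of 25.2 points between them, where the thinnest ovary had 1632 reads. The SD of 17.998 points was 23.7 times the 0.758 points that read counting gives. The neighbour 47 bp away showed no such split, with a largest gap between fish of 1.75 points. The mean of this CpG did not differ from the rest of its amplicon (2.07 points ± 21.96, SD, n = 9, exact permutation p = 0.785), and the sign of that difference turned without the thin position (-1.68 points).

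The chromosome 18 amplicon, from 39636122 to 39636564, was level along its length and differed between fish. Its 15 well covered CpGs had means from 34.4% at 39636210 to 44.3% at 39636518, a range of 9.92 points. By fish the amplicon mean was lowest in ovary 18 at 24.1% and ovary 6 at 25.2%, and highest in ovary 11 at 51.2% and ovary 13 at 55.3%, with a median of 36.6%. Ovary 13 was the highest fish at 14 of the 15 CpGs, and ovaries 18 and 6 were the lowest at 9 and 6 of them. The profile of an ovary correlated with the mean of the other 8 at r of 0.308 in ovary 6, 0.376 in ovary 18 and up to 0.881 in ovary 13, with a median of 0.742, as a description.

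Position accounted for 5.82% of the sum of squares of levels on chromosome 18, fish for 88.8% and the remainder for 5.36%. All 15 CpGs had means between 20% and 80%, and 12 stayed in that band in every ovary. The highest CpG, 39636518, had 26.8%, 42.2% and 63.7% in the lowest, median and highest ovary. It lay 9.15 points ± 4.29 above its upstream neighbour 39636412, and its downstream neighbour 39636523, 5 bp away, lay below it by a step of -9.22 points ± 3.02 (SD, n = 9 each, exact permutation p = 0.00391, adjusted p = 0.0172, same sign in 9 of 9 ovaries). A smaller step of 5.03 points ± 3.76 (SD, n = 9) led up to 39636223 from 39636218 (exact permutation p = 0.0117, adjusted p = 0.0413). It did not pass on the log-odds scale (adjusted p = 0.0501 by exact permutation) or without any one of ovaries 1, 2, 5, 6, 11, 13, 15 or 17 (adjusted p 0.0525 to 0.0787 by exact permutation). CpG 39636223 had the widest SD, 12.3 points, with 20.2%, 39.6% and 61.3% in the lowest, median and highest ovary. How many CpGs stood apart here depended on the 3 thin positions, since 6 were higher and 1 lower over all 18 positions, and 2 higher and 2 lower over the 15. CpG 39636223 lay 7.70 points above the rest over all positions (adjusted p = 0.0122 by exact permutation), and 3.18 points above it without the thin ones, which did not pass (adjusted p = 0.0708 by exact permutation). CpG 39636210 lay 1.33 points above the rest over all positions, which did not pass, and -3.26 points from it without the thin ones, which did (adjusted p = 0.0494 by exact permutation).

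**Figure D2:**
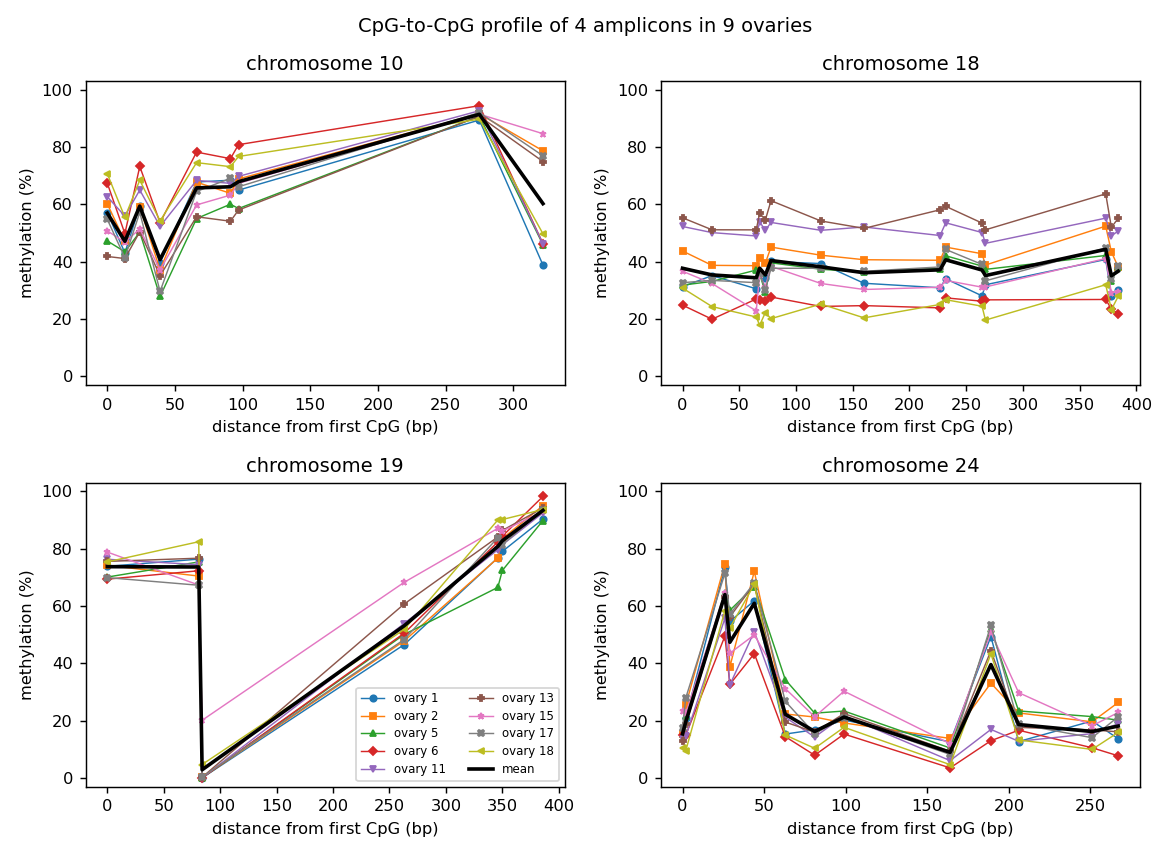
Methylation (%, y axis) at each well covered CpG against its distance from the first such CpG of the amplicon (bp, x axis), with 1 thin line per ovary and the mean in black. On chromosome 18 ovaries 13 and 11 run above and ovaries 6 and 18, which cross, below the others, within 17.9% to 63.7%, while on chromosomes 10, 19 and 24 the ovaries follow 1 course, apart from the last CpG of chromosome 10 and the second peak of chromosome 24.

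The chromosome 19 amplicon, from 27019198 to 27019584, showed the opposite split, with 96.7% of the sum of squares between CpGs and 1.32% between fish. Its 7 CpGs ran from 2.93% to 93.4%, and each of the 7 stood apart from the rest, 5 higher and 2 lower. The rest of every other CpG includes 27019282, at 2.93%, which lowers the mean it is set against. CpGs 27019198 and 27019279, both called higher, had means of 73.7% and 73.6%. Each fish's median CpG averaged 75.2% here, above both. Fish means lay between 60.6% in ovary 5 and 71.6% in ovary 15, with a median of 65.3%. The profile of each ovary correlated with the mean profile of the other 8 at r from 0.971 to 0.998 over the 7 CpGs, a description with no test. CpG 27019282 lies farther from the amplicon mean of 65.8% than any other CpG. It weighs heavily in these r values and in the share between CpGs, and neither was computed without it.

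The highest CpG of chromosome 19, 27019584, had 89.8%, 93.5% and 98.2% in the lowest, median and highest ovary, and lay 32.2 points above the rest (exact permutation p = 0.00391, adjusted p = 0.0122, n = 9). CpG 27019282 had 2.93% against 73.6% at 27019279, its upstream neighbour 3 bp away. That step of -70.7 points ± 9.47 (SD, n = 9) was the widest between neighbours in any amplicon tested. CpG 27019461 had 53.1% against 2.93% at 27019282 upstream, a step of 50.2 points ± 4.43, and CpG 27019544 had 80.8% against 53.1% at 27019461, a step of 27.7 points ± 7.28 (SD, n = 9 each). All 3 steps had the same sign in 9 of 9 ovaries (exact permutation p = 0.00391, adjusted p = 0.0172). The mid-amplicon CpG 27019461 had the widest SD here, 7.06 points, with 46.6%, 50.5% and 68.3% in the lowest, median and highest ovary.

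At 27019282 the 9 ovaries were not alike. Ovary 15 had 20.2% (150 of 743 reads, 95% exact Clopper-Pearson interval 17.4% to 23.3%) and ovary 18 had 4.77% (117 of 2455 reads, 3.96% to 5.68%). The other ovaries lay between 0.0856% and 0.434%. Ovary 15 had the lowest coverage of this amplicon, 747 reads. Ovary 5, the next lowest at 1082 reads, had 0.0923% at this CpG, and ovary 18 had a coverage of 2452 reads. The part of depth was not tested.

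The chromosome 24 amplicon, from 21640622 to 21640889, had a low background with 2 peaks. Its fish means ran from 18.9% in ovary 6 to 33.5% in ovary 5 with a median of 29.8%, and position accounted for 85.7% of the sum of squares and fish for 6.20%. Of its 13 CpGs 3 were higher and 9 lower than the rest, and 9 of 12 neighbouring pairs differed. The first peak lay at 21640648, with 49.6%, 64.7% and 74.8% in the lowest, median and highest ovary, 38.6 points above the rest. The lowest CpG was 21640786, with 3.59%, 9.37% and 13.9% in the lowest, median and highest ovary (-21.0 points against the rest). Both passed (exact permutation, n = 9, p = 0.00391 and 0.0122 once adjusted), and their ranges did not overlap.

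The edges of the first chromosome 24 peak were sharp. CpG 21640648 had 64.0% against 19.7% at 21640624, 24 bp upstream, a step of 44.4 points ± 5.33 (SD, n = 9). CpG 21640685 had 22.3% against 61.0% at 21640666, 19 bp upstream, a step of -38.7 points ± 11.6 (SD, n = 9). The second peak was the single CpG 21640811, with 39.6% against 9.01% at 21640786, 25 bp upstream, a step of 30.6 points ± 13.6 (SD, n = 9). Each of these steps had the same sign in 9 of 9 ovaries (exact permutation p = 0.00391, adjusted p = 0.0172). Inside the first peak the level dipped to 47.4% at 21640651, by -16.6 points ± 9.75, and rose by 13.6 points ± 8.35 to 21640666. Both steps passed (SD, n = 9 each, exact permutation adjusted p = 0.0172). From the second peak to 21640828 the step was -20.9 points ± 14.1 (SD, n = 9, exact permutation adjusted p = 0.0298), with 1 ovary going the other way.

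The second peak was also the most variable CpG of chromosome 24, with an SD of 15.2 points. Ovaries 6 and 11 had 13.1% and 16.99% there, ovary 2 had 33.1%, and the other 6 lay between 43.3% and 53.3%. Ovaries 6 and 11 were also the lowest of the 9 in the amplicon mean, at 18.9% and 22.7%. The CpG lay 12.1 points above the rest of the amplicon, which did not pass (exact permutation p = 0.0273, adjusted p = 0.0621, n = 9). Adjusted within the amplicon alone it did (adjusted p = 0.0273 by exact permutation).

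The first chromosome 5 amplicon, from 44944720 to 44945152, held 24 CpGs and the widest range between fish in points. Ovaries 1, 6 and 18 had means of 2.87%, 3.95% and 6.44%. Ovaries 13, 17, 11, 15, 5 and 2 had 33.4%, 34.0%, 41.6%, 42.4%, 45.5% and 48.1%. No ovary lay between these sets, and the 3 low ovaries had the highest coverage, 3687 to 14578.5 reads against 93 to 2330 reads in the 6 others. The caution given above bears on both sets. Ovaries 1 and 18 of the low set, and ovary 11 of the other, each matched a testis within sampling noise. In the high set ovaries 13 and 17 matched each other, as did ovaries 2 and 5. The split may thus rest on fewer separate fish than 9. Level and depth moved together across the 2 sets, and the part of depth in the split was not tested. Without the 3 low ovaries the SD was 5.98 points in place of 18.8.

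The low and the high ovaries of this chromosome 5 amplicon shared part of their profile. Each ovary's profile correlated with the mean of the others at r from 0.684 (ovary 6) to 0.961 over 24 CpGs, as a description. At 44945108, the CpG with both the highest mean and the widest SD, the 3 low ovaries had 4.72%, 5.74% and 11.5% and the 6 others 78.5% to 88.2%. Relative to each fish's own amplicon mean this CpG stood at 1.45 to 1.79 in the low ovaries and at 1.83 to 2.55 in the others. It was the highest CpG of ovary 18 and of the 6 others, while ovary 1 was highest at 44944743 and ovary 6 at 44944770. At 44944798 the order was the other way, with 1.11 to 1.45 times the own mean in the low ovaries and 0.641 to 1.01 times in the others. At 44944858, the CpG with the lowest mean, the level ran from 1.36% to 26.7% with a median of 10.7%. Both CpGs stood apart from the rest, by 30.9 and -16.5 points (exact permutation p = 0.00391, adjusted p = 0.0122, n = 9).

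In this amplicon 12 of 23 neighbouring pairs differed, 8 of them by 10 points or more. The widest step was 32.6 points ± 21.98, to 53.0% at 44945105 against 20.4% at 44945058 upstream. The next were -18.9 points ± 13.8, with 25.4% at 44944798 against 44.3% at 44944770 upstream, and -17.1 points ± 12.9, with 12.9% at 44944858 against 29.9% at 44944846 upstream (SD, n = 9 each). All passed (exact permutation, p = 0.00391 and 0.0172 once adjusted), with the same sign in 9 of 9 ovaries. With the 2 agreeing pairs counted as 1 sample each the 3 steps measured 28.6, -16.4 and -16.5 points and none passed (adjusted p = 0.0525 by exact permutation). That setting leaves 7 samples here, whose smallest p is larger by construction.

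**Figure D3:**
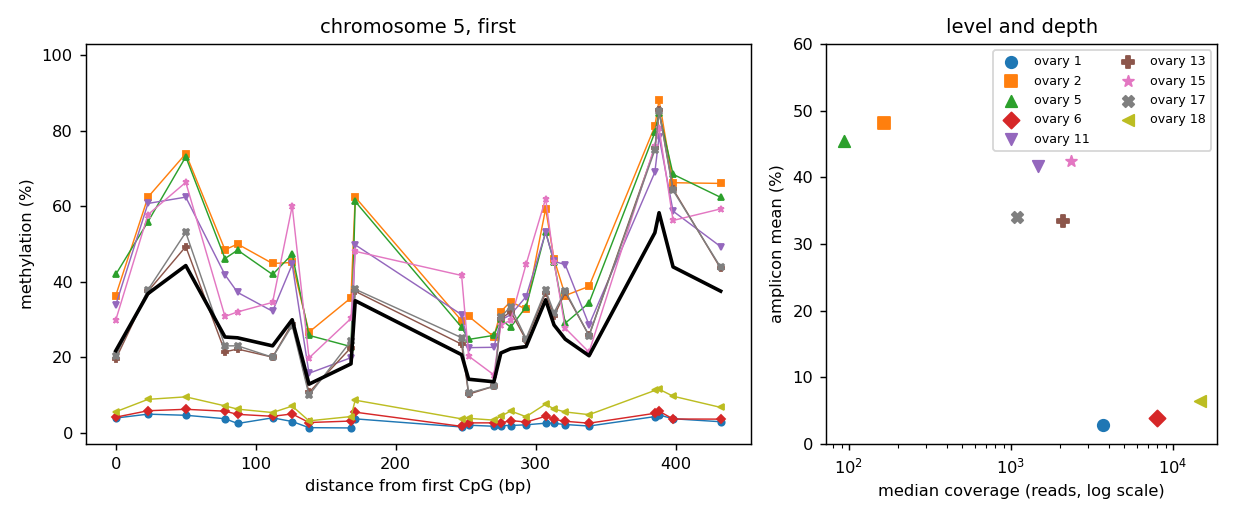
Left, methylation (%, y axis) at the 24 CpGs of the first chromosome 5 amplicon against distance from its first CpG (bp), with 1 line per ovary and the mean in black. Right, amplicon mean (%) against median coverage (reads, log scale), where ovaries 1, 6 and 18 lie below 7% at 3687 reads or more and the other 6 lie above 33% at 2330 reads or fewer.

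The chromosome 7 amplicon, from 35126017 to 35126375, was high but thinly read. Its 6 ovaries had means of 95.7%, 93.2%, 79.9%, 71.6%, 54.4% and 53.0%, in ovaries 1, 15, 6, 13, 18 and 11. Ovary 1, the highest, had a median of 11 reads per CpG, while ovaries 11, 15 and 18 had 39, 72 and 57. The means of its 7 CpGs ran from 65.0% at 35126295, with 37.8%, 67.1% and 100% in the lowest, middle and highest ovary, to 82.0% at 35126045. No CpG and no neighbouring pair passed, and with 6 ovaries none could here, since the smallest p, 0.0313, came to 0.0670 for CpGs and 0.0918 for steps once adjusted (exact permutation). CpGs 35126071 and 35126074 and the step of -11.2 points to 35126247 from 35126074 reached that smallest p. At this depth the exact interval of a fish's pooled level extended up to 9.59 points to a side, as the mean of its lower and upper arm. That interval pools the calls of the 7 CpGs as if each were independent. CpGs of 1 amplicon can lie on the same read, so the counting error of a fish's level may be wider. The SD between fish was 2.28 times that from counting in the median CpG, the smallest such ratio of the 9 amplicons.

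The remaining amplicons were close to 0 at nearly every CpG. They are the chromosome 3 amplicon (54607068 to 54607497), the chromosome 23 amplicon (24973689 to 24974060) and the second chromosome 5 amplicon (67992793 to 67993138). Their 64 well covered CpGs had means from 0.194% to 1.69%. In percentage points the amplicon mean had a narrow range between fish, from 0.505% to 0.662% on chromosome 23, from 0.305% to 0.871% on chromosome 3 and from 0.378% to 0.782% in the second amplicon of chromosome 5. On the log-odds scale the SD was 0.290 on chromosome 3, 0.229 in the second chromosome 5 amplicon and 0.0862 on chromosome 23, against 0.156 on chromosome 19 and 0.222 on chromosome 10. The SD on chromosome 23 was 0.0326 points without ovary 2 in place of 0.0496, and that on chromosome 3 over all positions was 0.103 without ovary 11 in place of 0.157. Methylated, unconverted and misread cytosines cannot be told apart at such levels, and no conversion control was used here.

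The CpG with the highest mean was 24973782 on chromosome 23 (0.937% ± 0.605, SD, n = 9, 0.268% to 1.95%) and 67993119 on chromosome 5 (1.12% ± 1.12, SD, n = 9, 0.234% to 3.31%). On chromosome 3 it was 54607290, where ovary 15 had 12.3% (1542 of 12529 reads, 95% exact interval 11.7% to 12.9%) and the other 8 ovaries had 0.130% to 1.24%. None of these 3 CpGs stood apart from the rest of its amplicon (exact permutation p of 0.102, 0.180 and 0.883, n = 9).

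Single high fish recurred on chromosome 3, at CpGs chosen after their values were seen. Ovary 5 had 10.4% at 54607217 (882 of 8475 reads, 9.76% to 11.1%), where no other ovary exceeded 1.72%. Ovary 18 had 8.42% at 54607221 (117 of 1389 reads, 7.02% to 10.01%), where no other exceeded 1.23%. Ovary 17 had 7.40% at 54607165 (794 of 10733 reads, 6.91% to 7.91%), where no other exceeded 0.654%. Ovary 15, high at 54607290, also had 6.37% at 54607320 (798 of 12529 reads, 5.95% to 6.81%), where no other exceeded 3.06%. These high values came from 4 different fish. Some CpGs lay below a rest whose mean includes any single high values. Without thin positions 6 CpGs of chromosome 3, 1 of the second chromosome 5 amplicon and 1 of chromosome 23 lay below the rest of their amplicon. The widest such differences were -0.436 points at 54607226, -0.439 points at 67992829 and -0.233 points at 24973726. Each was negative in 9 of 9 ovaries (exact permutation p = 0.00391, adjusted p = 0.0129). Such a difference need not mark a low CpG. CpG 24973726 had a mean of 0.337%, while each fish's median CpG over all positions of chromosome 23 averaged 0.315%. CpG 67992829 had 0.204% against 0.2496% in this way, and 54607226 had 0.194% against 0.315%. Across whole profiles, which include the single high fish, each ovary correlated with the mean of the others at a median r of -0.0540 on chromosome 3, -0.0474 on chromosome 23 and -0.00232 in the second chromosome 5 amplicon, as a description.

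**Figure D4:**
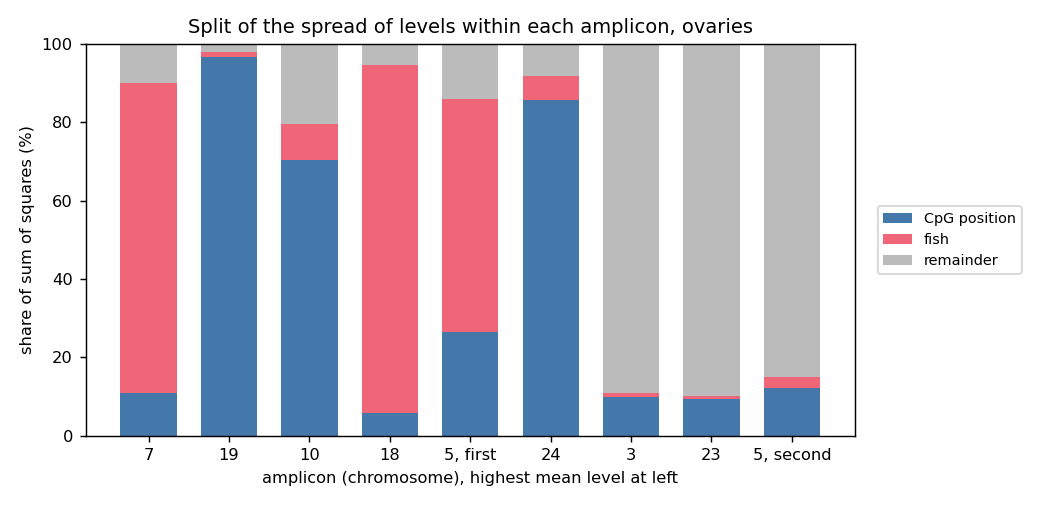
Share of the sum of squares of CpG levels (%, y axis) that lay between CpG positions, between fish and in the remainder, for the well covered CpGs of each amplicon (x axis). Position leads on chromosomes 19, 24 and 10, fish on chromosomes 18 and 7 and in the first chromosome 5 amplicon, and the remainder in the 3 amplicons close to 0.

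Intermediate levels were common in ovaries. Of 139 well covered CpGs, 57 had a mean between 20% and 80%, 76 lay below 20% and 6 above 80%. The 57 were 20 CpGs of the first chromosome 5 amplicon, 15 of chromosome 18, 8 of chromosome 10, 6 of chromosome 24, 5 of chromosome 7 and 3 of chromosome 19. In the first chromosome 5 amplicon the band described the mean only, since ovaries 1, 6 and 18 had none of the 24 CpGs inside it and the other 6 had 79.2% to 95.8% of them. With reads pooled over ovaries, 2 of its 24 CpGs lay in the band. On chromosome 18 the band held in single fish too, with 86.7% to 100% of CpGs inside it in each ovary, and on chromosome 10 it held 77.8% to 88.9%. Of the 57 CpGs, 23 lay in the band in every ovary, with 12 on chromosome 18, 6 on chromosome 10, 3 on chromosome 24 and 2 on chromosome 19.

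The SD between ovaries was compared with the SD that read counting alone gives, as a description with no test. The ratio was smallest at 67992829 of the second chromosome 5 amplicon, at 1.01, where the spread was that of counting, and next at 35126247 on chromosome 7, at 1.67. It reached 32.5 on chromosome 3. The median ratio of the SD to that from counting was 11.6 on chromosome 18, 10.1 on chromosome 10, 9.78 on chromosome 24, 8.38 in the second chromosome 5 amplicon and 7.67 in the first. It was 7.05 on chromosome 23, 6.24 on chromosome 19 and 3.93 on chromosome 3. In points the SD of a single CpG ran from 0.0560 in the second chromosome 5 amplicon to 38.4 in the first. On chromosome 10 it ran from 1.53 points at 44956825 to 17.998 points at 44956872, neighbours 47 bp apart.

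**Figure D5:**
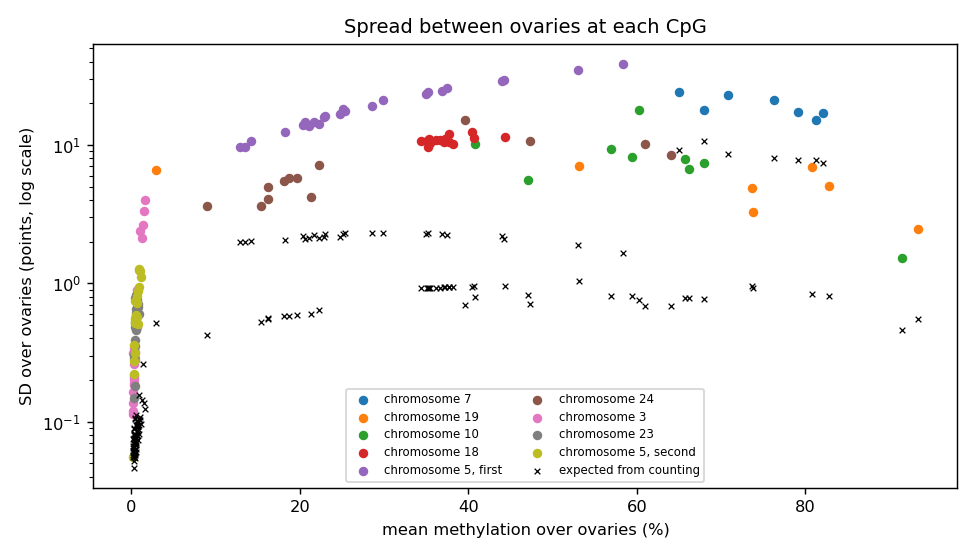
SD over ovaries (points, log scale, y axis) of each well covered CpG against its mean level (%, x axis), coloured by amplicon, with the SD expected from read counting as crosses. The observed SD lies above the expected one at nearly every CpG and meets it at 67992829, where the ratio is 1.01, and the CpG of widest SD, 38.4 points, belongs to the first chromosome 5 amplicon, whose SDs start at 9.64 points.

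Across ovaries no relation of amplicon level with depth passed in 8 amplicons tested with exact permutation, adjusted over the 8. The largest was that of chromosome 24 (Pearson's r = -0.431 with an exact permutation p of 0.248 and 0.846 once adjusted). Its Spearman's rho was -0.633 (p = 0.0760 by exact permutation and 0.608 once adjusted), and without ovaries 5 and 17 its r was -0.0147. Leaving out the 2 ovaries farthest from the median depth moved r in both directions in the other amplicons, to between -0.893 on chromosome 7, where 4 ovaries were left, and 0.494 on chromosome 19, with -0.652 on chromosome 3 and -0.524 on chromosome 23. The first chromosome 5 amplicon was not tested this way, because its ovaries fell into 2 separate sets.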

How the data were processed

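Per the labels' protocols, phenol-chloroform DNA of each gonad, 1000 ng, was treated with bisulfite, and amplicon libraries were sequenced on a MiSeq instrument. Per the submitters' processing notes, the tools were Bismark 16.0 and Bowtie2 with build GRCz11, FastQC 0.11.6 and Trim Galore 0.4.5. The deposited files give counts of methylated and unmethylated reads per position and fish, not normalized, and the authors' methylation percent, equal to methylated over all reads within 1e-06 points in all 2095 ovary values. No coverage filter is given in the sources used here.

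Levels were methylated reads over all reads in each ovary, each fish being 1 replicate and each CpG having equal weight. A fish entered an amplicon with at least 50% of its CpGs. Tests were two-sided exact sign-flip permutations over all 512 sign patterns of 9 fish, Benjamini-Hochberg adjusted, threshold 0.05. Only the test of a CpG against its rest was run on simulated data. Those had intermediate levels, so amplicons close to 0, amplicon pairs and steps were not covered. The sum of squares was split for the well covered CpGs without a test. Named CpGs were, per amplicon, those of highest and lowest mean, of widest SD, and up to 3 of the widest steps past the threshold; below a mean of 5% only the highest. Members, rules and tests were chosen with earlier results of these data known. Testes were used only to count agreeing libraries. The table of the whole series was not used here. Gene chromosomes come from RefSeq's table of another build. The software was scipy 1.17.1, numpy 2.4.6, matplotlib 3.10.9, pandas 2.3.3 and networkx 3.6.1 under Python 3.11.15.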

Additional observations from a re-analysis of the deposited data

Results flagged for a closer look

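A value was set apart by its gap to the nearest other value, as a share of the range of its group. In a group of 9 normally distributed values chance sets 1 apart by this measure in about 1 of 20 groups. Levels close to 0 can be skewed, as at 54607290, with a median of 0.288% and a highest value of 12.3%. That rate need not hold for them, so counts of CpGs with 1 ovary set apart are not read against it. Ovary 11 lay below the other 8 in the mean of the chromosome 3 amplicon, at 0.273% against 0.533% to 0.781% over all positions. Without the thin positions ovary 11 was still the lowest, at 0.305% against 0.548% to 0.871% in the other 8. Its gap was then a smaller share of the range, and it was not set apart by the same measure. The flag on ovary 11 thus depends on the thin positions. By the median CpG it was not the lowest, with 0.222% against 0.160% in ovary 15. Among the CpGs named by rule, ovary 15 lay above the others at 2. It had 12.3% at 54607290 on chromosome 3 (0.130% to 1.24% in the other 8) and 20.2% at 27019282 on chromosome 19 (0.0856% to 4.77% in the other 8). Over all well covered CpGs, ovary 15 was the one set apart at 2 on chromosome 3, 1 on chromosome 19 and 1 on chromosome 23. Ovaries 5 and 6 were set apart as often. Ovary 5 was so at 1 CpG of chromosome 3, 2 of the second chromosome 5 amplicon and 1 of chromosome 23. Ovary 6 was so at 2, 1 and 1 CpGs of these amplicons. In the 3 amplicons close to 0, 22 of 64 CpGs had 1 ovary set apart in this way, against 1 of 75 CpGs in the 6 methylated amplicons, as a description with no test. On chromosome 3 these were 11 of 26 CpGs, and 8 of the 9 ovaries were the one set apart at least once.

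Reads outside the kept positions also carried methylation. At 123 left-out positions away from the 9 amplicons, 714 of 1771 reads were methylated over all ovaries, which is 40.3% (95% exact interval 38.0% to 42.6%). The 22 positions on chromosome 16 held 406 of 573 reads methylated (70.9%, 66.9% to 74.5%), and at most 1 ovary had 10 reads at any of them. At 114 left-out positions inside or beside the amplicons other than that of chromosome 7 the level was 0.575% (6 of 1044 reads). At the 8 left-out positions beside the chromosome 7 amplicon it was 54.8% (282 of 515 reads, 50.3% to 59.1%).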

How the results depend on the processing

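The number of amplicon pairs that differ was 22 to 29 under the other settings, with 28 pairs to test where chromosome 7 dropped out. With 1 ovary left out it was 21 to 28. Without any one of ovaries 1, 6, 11, 13, 15 or 18 it was 21 or 22, and without ovary 2, 5 or 17 it was 27 or 28. The first 6 are the ovaries of chromosome 7, and leaving 1 of them out left too few for any of its pairs to pass. CpGs above the rest of their amplicon numbered 20 to 26 and CpGs below it 28 to 33 with 1 ovary left out, called steps 32 to 44, called steps of 10 points or more 23 to 25, and intermediate CpGs 53 to 60. With agreeing ovaries counted as 1, called steps fell to 25, in a setting with fewer samples in 1 amplicon. Without the first chromosome 5 amplicon, a setting added after seeing the data, 28 of 118 steps were called. On the log-odds scale 33 CpGs were higher and 27 lower, in place of 26 and 35. With reads pooled over ovaries 38 CpGs were intermediate in place of 57.

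Taking each fish's median CpG, amplicon levels were 0.315% on chromosome 3, 0.2496% in the second chromosome 5 amplicon, 75.2% on chromosome 19, 0.315% on chromosome 23 and 20.3% on chromosome 24. Mean levels with 1 ovary left out stayed within 57.1% to 62.8% on chromosome 10, 32.0% to 35.9% on chromosome 18, 65.0% to 66.4% on chromosome 19, 27.8% to 29.6% on chromosome 24, 26.3% to 31.9% and 0.523% to 0.569% on chromosome 5, 70.4% to 78.97% on chromosome 7, 0.583% to 0.647% on chromosome 3 and 0.545% to 0.564% on chromosome 23. The SD in points then ran over 0.103 to 0.168 on chromosome 3 and 0.0326 to 0.0531 on chromosome 23, and was 5.98 in the first chromosome 5 amplicon without ovaries 1, 6 and 18. By SD on the log-odds scale chromosomes 3, 10, 24, 5 (second) and 19 ranked 4, 5, 6, 7 and 8 of 9. The levels, SDs and ranks of this paragraph are over all positions. Without the thin positions the log-odds SD of chromosome 10, 0.222, lay below the 0.262 of chromosome 24. It also lay below the 0.229 of the second chromosome 5 amplicon.

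The relation of level with depth turned sign without thin positions on chromosome 10 (r = 0.164) and chromosome 18 (r = 0.134), neither past the threshold. CpG 44956872 against its rest turned to -1.68 points without thin positions, at coverage minimums of 30 and 100 and with full coverage, and to -0.859, -4.58 and -5.15 points without ovary 5, 13 or 15, with up to 5.50 points without another ovary. CpG 39636210 turned to -3.26 points under the same 4 settings and to -0.294 and -0.0942 points without ovary 11 or 13, with up to 1.95 points otherwise, and 54607290 to -0.231 points without ovary 15, with up to 1.34 points otherwise. The difference of chromosome 7 against 19 turned to -1.03 points with medians over CpGs. The cause was not tested. Depth limits the chromosome 7 amplicon most.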
